A study of Mus musculus with 24 samples.

Results

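RNA was measured in 12 libraries of mouse cochlear organoids, and the comparison described here is that of organoids with knockdown of RBM25 plus TNF (3 libraries) against organoids with TNF alone (3 libraries). These 6 libraries are 6 of the 24 in the series and were chosen by their labels alone. All 25190 genes of the count table were considered and 15888 were tested. The other 6 organoid libraries, 3 untreated controls and 3 with the knockdown but no TNF, share no library with this comparison and are used to set the same knockdown effect without TNF beside it. Per the labels, the organoids came from cochlear epithelium of wild-type mice at postnatal day 1 to 2, were grown in Matrigel with EGF, bFGF, IGF and the Wnt activator CHIR99021, were then differentiated with 3 µM CHIR99021 and the Notch (gamma-secretase) inhibitor LY411575 at 5 µM, and were last kept in EGF and bFGF at 10 ng/mL each. RBM25 was depleted with a lentivirus, per the treatment protocol, whereas the titles speak of a knockout, and the protocol is followed here. Neither the dose or time of TNF nor the virus that the controls received is stated in the labels used here. An organoid of this kind holds hair cell-like, supporting cell-like and other cells, so that in these bulk libraries fewer cells of a type and less RNA per cell cannot be told apart.

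RBM25 is an RNA-binding protein that associates with the U1 snRNP and with the LUC7-like proteins, and it is known for its part in the choice of splice sites, among them those of the apoptosis regulator Bcl2l1 (Bcl-x). TNF is an inflammatory cytokine whose receptor TNFR1 activates NF-kB and the MAP kinases through a complex of TRADD, TRAF2, RIPK1 and the IKK kinases, and can also start apoptosis or necroptosis. Interferon-stimulated genes are a further layer: interferons, or the sensing of nucleic acids in the cell, activate factors of the STAT and IRF families, which raise a large set of antiviral genes.

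The 6 libraries held 36148834 to 36565649 counted reads, and all 12 held 33802411 to 37048422. The spread between replicates was small, with a common biological coefficient of variation of 8.04%, and no replicate pair was as alike as sampling noise alone would make it (chi-square per degree of freedom 4.54 to 34.5). Nothing in the labels says that replicates are separate cultures, so p-values reflect no more than the spread among these libraries, which may be technical. Values are CPM, the counts scaled to a common library size, differences are log2 fold changes of the knockdown plus TNF over TNF with their standard error (SE), and adjusted p is that of edgeR's quasi-likelihood F-test after Benjamini-Hochberg adjustment over all 15888 genes, two-sided. Genes are called higher or lower at an adjusted p under 0.05.

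Rbm25 RNA, from a gene on mouse chromosome 12 (GRCm38.p6, chr12:83632208-83683127), was at 150, 163.3 and 173.0 CPM with TNF alone and at 102.9, 122.1 and 107.6 CPM with the knockdown plus TNF. Each library of the knockdown was below each library of TNF alone, so the labels and the targeted gene go the same way. The difference was -0.55 ± 0.06 (SE, n = 3 against 3, adjusted p = 4.61e-07), that is 0.684 times the level with TNF alone, so a larger part of the transcript was left than was removed. Without TNF the knockdown lowered Rbm25 by a like amount (-0.61), and the difference between both effects did not pass the test (adjusted p = 0.683). Tnf RNA had no count in any of the 6 libraries without TNF. It was at 1.297, 1.118 and 1.251 CPM with TNF and at 1.605, 2.217 and 1.751 CPM with the knockdown plus TNF, and although the groups did not overlap, the difference did not pass the test (0.60 ± 0.30, adjusted p = 0.105). It passed when only the 6 libraries compared were fitted (0.62, adjusted p = 0.0488) and with limma on log2(FPKM + 1) (adjusted p = 0.000686).

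The knockdown changed 8314 of the 15888 genes tested (52.3%) in the TNF-treated organoids. Of these 4035 (25.4% of the genes tested) were higher and 4279 (26.9%) were lower. Most changes were small: 1772 genes that rose and 3076 that fell changed by less than 1.5-fold, and when a change of more than 1.5-fold was asked of the test itself (glmTreat), 1298 genes were higher and 611 lower. Changes of 2-fold or more were more often upward, with 1499 higher genes (9.43% of those tested) and 551 lower genes (3.47%). This surplus lay in genes of low and middle level: among the 2577 genes under 1 CPM 508 rose and 168 fell by 2-fold or more, and among the 2376 genes at 100 CPM or above 53 rose and 54 fell. Protein-coding genes were called higher in 27.3% and lower in 28.6%, and the 1918 non-coding genes tested in 11.4% and 15.0%.

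The 5 higher genes with the smallest p-values were Kank4, Agrn, Myl9, Nes and Cep41. Kank4, whose protein anchors microtubules near integrin adhesions, was at 37.50, 31.48 and 32.83 CPM with TNF and at 226.1, 216.7 and 228.9 CPM with the knockdown (2.72 ± 0.06, adjusted p = 6.93e-16). Agrn, which encodes the basement membrane proteoglycan agrin, went from 275.4, 263.0 and 252.0 to 1245, 1105 and 1259 CPM (2.19 ± 0.06, adjusted p = 1.65e-14). In both genes the 3 libraries of a group lay close together and far from those of the other group. This follows from their choice by the smallest p. Myl9, the regulatory light chain of smooth and non-muscle myosin, rose by 2.61 ± 0.07, Nes, the intermediate filament nestin of progenitor cells, by 1.88 ± 0.05, and Cep41, a protein of centrioles and cilia, by 1.49 ± 0.04.

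Among the lower genes, Smoc2, a secreted calcium-binding matrix protein, had the smallest p. It was at 186.5, 184.1 and 177.8 CPM with TNF and at 24.50, 24.99 and 24.25 CPM with the knockdown (-2.89 ± 0.06, adjusted p = 6.12e-17). Xdh, xanthine dehydrogenase of purine breakdown, fell from 111.1, 103.7 and 100.1 to 25.52, 25.04 and 26.38 CPM (-2.03 ± 0.07). Scara3, a scavenger receptor, fell by 1.72 ± 0.07 on the log2 scale, Gask1a, a Golgi protein, by 1.78 ± 0.06, and Sms, spermine synthase, by 1.54 ± 0.06. All of these 10 genes had also changed in the same direction without TNF (adjusted p at most 1.47e-12).

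**Figure D1:**
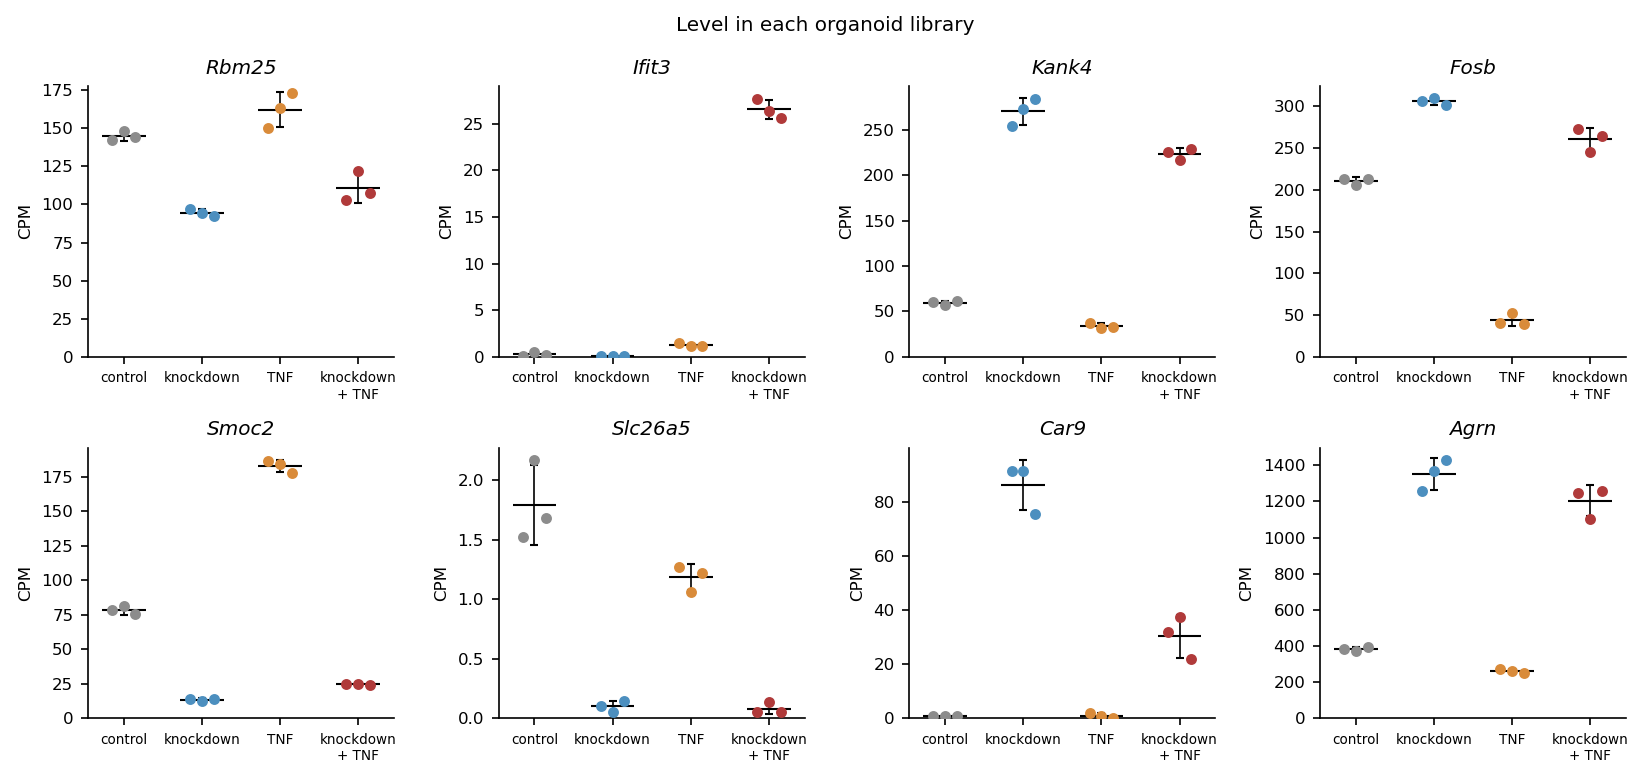
CPM of 8 genes in each of the 12 organoid libraries (points, 3 per group), with the group mean (line) and SD (bar), on axes that start at 0. Ifit3 is high in the knockdown plus TNF libraries alone (25.65 to 27.66 CPM), whereas Smoc2, Slc26a5, Car9 and Agrn differ between knockdown and no knockdown with and without TNF.

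By size, the 12 highest genes that met the rule for named genes held several that respond to interferon. Scg2, the neuropeptide precursor secretogranin II, was at 0.1932, 0.1957 and 0.2502 CPM with TNF and at 53.55, 36.59 and 78.11 CPM with the knockdown (8.02 ± 0.52, adjusted p = 1.78e-06), and it was high with the knockdown alone too (mean 40.42 CPM). The chemokine Cxcl9 had 1 count over the 3 TNF libraries and 365 over the knockdown plus TNF libraries, a ratio of 354 with an exact 95% counting interval of 63.1 to 14000. Oas1g and Oas2, antiviral oligoadenylate synthetases, had 2 and 1 counts with TNF and 266 and 133 with the knockdown, each a ratio of 129, with intervals of 35.3 to 1070 and 22.7 to 5130. Such intervals cover counting error only. The other names on this list were Ifi44, Usp18, Slfn5, the hormone precursor Sct (secretin), the imprinted RNA H19, the matrix protease Mmp3, the carbonic anhydrase Car9 and Ibsp, which is described with the bone genes below. Slfn5, Sct and Mmp3 were under 0.2 CPM in each TNF library.

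The lowest genes were mostly lower without TNF as well. Slc26a5, which encodes prestin, the motor protein of outer hair cells, was at 1.269, 1.062 and 1.223 CPM with TNF and at 0.05349, 0.1352 and 0.05389 CPM with the knockdown (-3.82 ± 0.43, adjusted p = 6.17e-07). Ikzf3, a zinc finger transcription factor best known in lymphocytes, fell from 5.767, 5.143 and 4.754 to 0.2942, 0.3515 and 0.4041 CPM (-3.89 ± 0.25), and the sialyltransferase St8sia6 fell by 3.14 ± 0.21. Without TNF these 3 genes fell by 4.09, 3.90 and 3.42. The remaining lowest genes were Car10, Tmem233, Aox4, Crhr1, Hsd17b6, Capn3, Jakmip2, Smoc2 and the serotonin transporter Slc6a4. Slc6a4 had no count in the libraries without TNF, was at 2.180, 1.342 and 1.029 CPM with TNF and at 0.1337, 0.3245 and 0.1617 CPM with the knockdown plus TNF (-2.86 ± 0.47, adjusted p = 0.000146). Capn3, a calpain protease, fell by 2.99 on the log2 scale, and by 2.37 when knockdown plus TNF replicates 1 and 2 were both left out.

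The genes were read in 44 lists of pathways, complexes and cell type markers, and each list is set against the 25.4% of all genes tested that rose and the 26.9% that fell. The interferon-stimulated, complement, glycolysis and hypoxia, and immediate early lists had, of those with at least 10 tested members, the largest surplus of higher over lower members. The supporting cell, ribosomal protein, hnRNP and core spliceosome lists had the largest surplus of lower members. For the ribosomal protein, hnRNP and core spliceosome lists the shifts were small, with medians of -0.09, -0.07 and -0.04. The median of all genes tested at 100 CPM or more was -0.084. With a minimum fold of 1.5, 0, 1 and 0 of their members were called lower, and limma left 10 ribosomal and 6 hnRNP members lower.

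**Figure D2:**
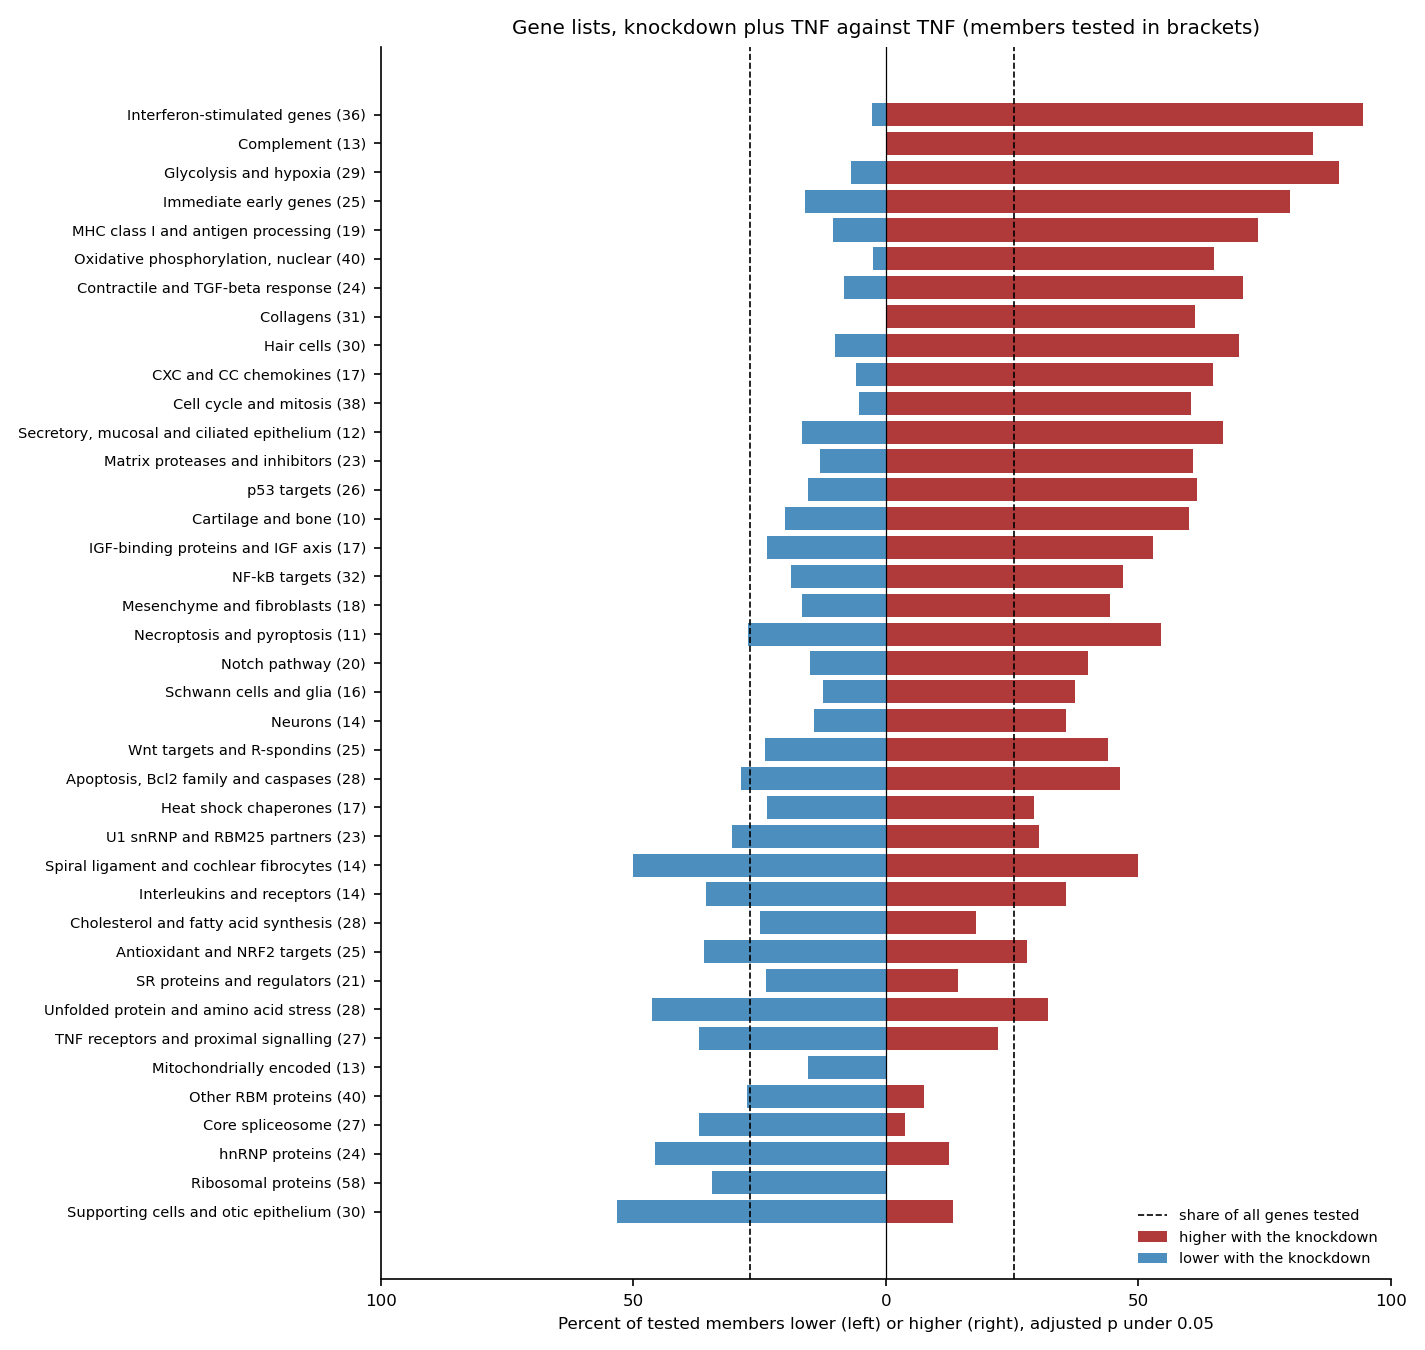
Share of the tested members of each list with at least 10 tested members that was higher (red, right) or lower (blue, left) with the knockdown plus TNF than with TNF, in percent, at an adjusted p under 0.05, with the shares over all genes tested as dashed lines (25.4% and 26.9%). Interferon-stimulated genes are at the top with 94.4% higher and 2.78% lower, and supporting cell genes at the bottom with 13.3% higher and 53.3% lower.

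Interferon-stimulated genes rose almost as a whole list. Of 40 genes listed, 36 were tested: 34 rose, Ddx58 fell and Oasl2 was not called, with a median of 1.63 against -0.009 over all genes tested. Of these 22 rose by 2-fold or more. Ifit3, an antiviral RNA-binding protein, was at 1.435, 1.118 and 1.168 CPM with TNF and at 27.66, 26.31 and 25.65 CPM with the knockdown plus TNF (4.42 ± 0.20, adjusted p = 7.16e-12). Ifi44 went from 0.3587, 0.1957 and 0.2780 to 10.86, 15.22 and 11.69 CPM (5.49 ± 0.26, adjusted p = 7.72e-12). In neither gene did the groups come near each other, and both were named for their small p or large change in these same libraries. Usp18, the protease that removes ISG15 from proteins and dampens the interferon receptor, rose by 5.10 ± 0.35, and Rtp4, which was already high with TNF, rose from 30.74, 24.38 and 28.14 to 76.60, 80.40 and 79.62 CPM (1.51 ± 0.08).

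The transcription factors of the interferon response were among the genes that rose. Stat2 rose by 0.88 ± 0.08. Irf7, which amplifies the response, went from 3.090, 1.006 and 0.9175 to 36.00, 43.73 and 29.29 CPM (4.44 ± 0.37). TNF replicate 1 was the highest of its group for Irf7 and for Isg15 (1.490, 0.1957 and 0.1946 CPM with TNF, 19.93, 19.23 and 13.85 CPM with the knockdown). Without that library the difference was 5.22 for Irf7 and 6.47 for Isg15, against 4.44 and 4.80 with it. Stat2, Irf7, Isg15, Ddx58, Oasl2 and Adar are named here after their values were seen.

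The start sites of several of these genes are shown because the letters of the interferon-stimulated response element, a site that factors of the IRF family bind, could be read there. In RefSeq's windows of 250 bases before to 50 after the start (GRCm38.p6), the 10 letters GAAANNGAAA were searched on both strands, overlapping matches included. They were in 17 of the 27 tested list members that had a window (63.0%), in 3.55% of the 12395 genes tested that had one, and in 3.99% of all 27025 genes with a window. The list holds genes known to respond to interferon, so a larger share is built into it and does not bear on the knockdown. The capitals mark each match, and the windows are at chr4:156200769-156201068 (minus strand) for Isg15, chr19:34583279-34583578 (plus strand) for Ifit3, chr3:151749861-151750160 (minus strand) for Ifi44 and chr4:40239776-40240075 (minus strand) for Ddx58.
Isg15: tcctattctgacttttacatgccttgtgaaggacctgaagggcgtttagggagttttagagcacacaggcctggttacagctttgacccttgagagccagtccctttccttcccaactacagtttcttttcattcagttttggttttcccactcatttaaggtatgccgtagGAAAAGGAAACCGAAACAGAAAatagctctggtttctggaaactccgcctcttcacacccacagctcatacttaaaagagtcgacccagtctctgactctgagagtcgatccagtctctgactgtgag
Ifit3: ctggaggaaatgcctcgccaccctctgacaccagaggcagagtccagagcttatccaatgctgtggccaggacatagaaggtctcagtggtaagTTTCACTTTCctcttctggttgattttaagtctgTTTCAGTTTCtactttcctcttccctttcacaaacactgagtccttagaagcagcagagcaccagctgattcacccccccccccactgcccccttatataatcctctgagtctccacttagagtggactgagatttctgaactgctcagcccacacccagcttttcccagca
Ifi44: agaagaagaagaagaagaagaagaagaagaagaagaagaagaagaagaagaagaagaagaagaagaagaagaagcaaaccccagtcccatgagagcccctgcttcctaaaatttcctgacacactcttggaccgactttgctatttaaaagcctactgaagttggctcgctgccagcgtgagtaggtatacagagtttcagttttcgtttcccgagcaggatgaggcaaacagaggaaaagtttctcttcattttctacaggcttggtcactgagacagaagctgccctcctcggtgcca
Ddx58: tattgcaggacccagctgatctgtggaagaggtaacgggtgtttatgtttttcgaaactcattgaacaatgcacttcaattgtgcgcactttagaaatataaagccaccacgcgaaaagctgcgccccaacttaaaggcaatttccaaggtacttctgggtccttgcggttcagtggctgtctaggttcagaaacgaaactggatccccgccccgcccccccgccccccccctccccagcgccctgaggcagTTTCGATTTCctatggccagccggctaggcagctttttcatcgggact
Isg15 held 3 overlapping matches and Ifit3 held 2. Ddx58, the list member that fell, held 1 match just after its start, and Ifi44, which rose by 5.49, held none. A match is a description of letters and not a bound site, and a window without one says only that these letters are not in it.

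Without TNF the same knockdown did not raise this list. There 4 of the 36 members rose and 16 fell, against 24.4% and 28.2% of all genes tested, with a median of -0.58. Summed over the listed genes, the level was 695.3 to 707.9 CPM in the controls, 391.5 to 419.4 CPM with the knockdown alone, 971.6 to 1123 CPM with TNF and 1644 to 1679 CPM with both, and no group overlapped another. The difference between the knockdown effect with TNF and that without it passed the test as positive in 28 members and as negative in 0, against 7.54% and 4.81% of all genes tested. For Ifit3 this difference was 5.69 (adjusted p = 6.1e-06) and for Stat2 1.49 (adjusted p = 1.42e-07). Oasl2 showed the pattern in another form: it was at 108.2 CPM (mean) in the controls, 13.32 CPM with the knockdown, 127.5 CPM with TNF and 110.4 CPM with both, so that it fell by 3.02 with the knockdown alone and was not called with TNF (-0.21, adjusted p = 0.169), a difference of 2.81. Ifi44 and Rtp4 went the same way in both settings, having risen by 2.07 and 0.99 without TNF.

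**Figure D3:**
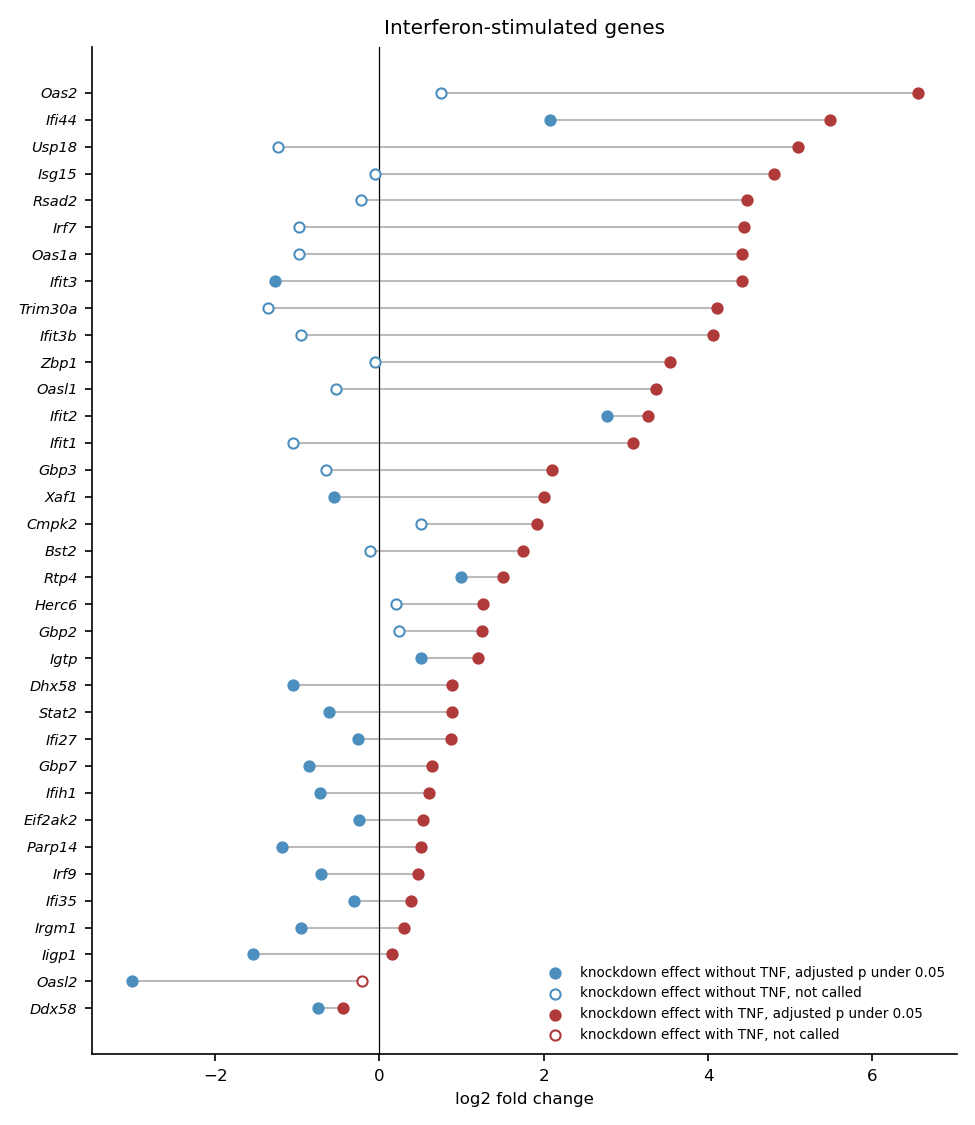
The log2 fold change of 35 of the 36 tested interferon-stimulated genes with the knockdown, without TNF (blue) and with TNF (red), joined by a line. Filled points passed an adjusted p of 0.05, and all of those drawn but Oasl2 and Ddx58 lie to the right of 0 with TNF, whereas 15 of them passed as lower without it.

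The genes of interferons themselves had few counts or none, and what started the response was not tested. The table held 8 genes of interferons themselves and none was tested. The highest count in any library was 5, and Ifnb1 had 3 counts in 1 library with both treatments and none in the other 11. Of the RNA sensors, Ifih1 (MDA5) rose by 0.61 and Dhx58 (LGP2) by 0.89, while Ddx58 (RIG-I) fell from 220.7, 203.3 and 200.7 to 156.2, 148.3 and 156.2 CPM (-0.44 ± 0.05). Zbp1, a sensor of Z-form nucleic acids that can start necroptosis, rose from 0.9658, 0.1398 and 0.5839 to 6.392, 8.383 and 4.904 CPM (3.53 ± 0.45, adjusted p = 1.25e-05). Adar, which edits double-stranded RNA, rose by 0.29 with TNF and fell by 0.49 without it, and this difference of 0.78 passed the test (adjusted p = 1e-06). Ifnar1, a chain of the receptor for type I interferon, fell from 131.8, 128.8 and 123.2 to 99.90, 96.11 and 103.3 CPM (-0.36 ± 0.05). Summed macrophage markers rose too, from 3.531 to 5.684 CPM with TNF to 11.60 to 14.31 CPM with both. Of the 20 listed macrophage markers 13 were in the table and only 4 were tested. Of these 3 were higher, among them Aif1 (2.10), and Cd68 was not called (adjusted p = 0.59). The call of Cd14 was lost in 7 of 14 other settings. Among these were the fits without TNF replicate 2 or 3 (adjusted p = 0.155 and 0.145). Others were those without knockdown plus TNF replicate 1 or 3 (adjusted p = 0.0757 and 0.136) and the DESeq2 test (adjusted p = 0.0544). The pan-leukocyte gene Ptprc had no count in any of the 6 libraries. The part of these cells in the result was not tested. Oas1a and Oas1g, and Ifit3 and Ifit3b, are near-identical pairs between which the authors' counting could split or drop reads.

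NF-kB targets rose more often than they fell, whereas genes of the TNF receptors and their proximal complex fell more often. Of 32 NF-kB targets tested 15 rose and 6 fell (46.9% and 18.8%), with a median of 0.23. By 2-fold or more 7 rose and 0 fell, and with a minimum fold of 1.5 in the test 3 were called higher and 0 lower. Summed, the list was at 2705 to 3081 CPM with TNF and at 3121 to 3308 CPM with both. Nfkbia, the inhibitor IkB-alpha that NF-kB itself induces, was at 622.4, 623.0 and 612.1 CPM with TNF and at 563.8, 565.0 and 542.3 CPM with the knockdown plus TNF, against a mean of 35.90 CPM in the controls, so it was far above the controls in both groups (-0.15 ± 0.04, adjusted p = 0.00645). Nfkb2, the p100 subunit, fell by 0.24 and Nfkbie, a further inhibitor, rose by 0.59. Of 27 genes of the TNF receptors and their proximal complex 6 rose and 10 fell, none of them by 2-fold, and 3 rose without knockdown plus TNF replicates 1 and 2. Tnfrsf1a, the receptor TNFR1, went from 72.16, 75.45 and 74.76 to 92.46, 84.67 and 91.98 CPM (0.28 ± 0.06). The IKK subunit Ikbkg fell from 78.20, 79.81 and 81.68 to 61.73, 58.11 and 58.14 CPM (-0.43 ± 0.05), and Ikbkb, Cflar and Tab3 fell by 0.28, 0.33 and 0.37. Nfkbia and Tnfrsf1a are named after their values were seen.

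Of the chemokines 11 of 17 tested rose (64.7%) and only the membrane-bound Cx3cl1 fell, with a median of 1.18. Cxcl10, an attractant of T cells that both interferon and NF-kB induce, went from 14.62, 8.470 and 11.29 to 53.92, 81.80 and 45.59 CPM (2.40 ± 0.28, adjusted p = 9.15e-05). Ccl5 rose from 1.628, 1.006 and 0.8341 to 5.483, 6.815 and 2.694 CPM (2.11 ± 0.37). Cxcl14 and Cxcl12 rose by 1.39 and 1.70, and had risen by 2.18 and 1.19 without TNF. With knockdown plus TNF replicates 1 and 2 both left out, 4 chemokines and 7 NF-kB targets were called higher, and Ccl5 was at 1.22 (adjusted p = 0.0766).

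Genes of antigen presentation and complement mostly rose. Of 19 tested MHC class I and antigen processing genes 14 rose (73.7%) and 2 fell. Tap1, the peptide transporter, went from 28.14, 25.49 and 24.77 to 47.88, 44.32 and 51.30 CPM (0.87 ± 0.07), and the difference from the knockdown effect without TNF was 0.81 (adjusted p = 7.11e-05). H2-D1, a classical class I heavy chain with near-identical family members, rose by 0.66 ± 0.05, Psmb8, a subunit of the immunoproteasome, by 1.07 ± 0.14, and Tapbp (tapasin) by 0.60 ± 0.07. Of 13 complement genes 11 rose and 0 fell. C2 went from 4.498, 2.684 and 2.669 to 12.25, 13.58 and 9.969 CPM (1.86 ± 0.23), C1ra rose by 1.43, C4b by 1.84 and Masp1 by 0.57. Without TNF 8 of these complement genes had risen too. Among the interleukins and their receptors 5 of 14 rose and 5 fell: the alarmin Il33 rose from 42.41, 47.69 and 47.60 to 150.4, 153.7 and 142.7 CPM (1.70 ± 0.06), Il15 fell by 1.23 and the shared receptor chain Il6st by 0.30. C2 and Tapbp overlap other annotated genes over 42.8% and 24.9% of their exon bases, and without strand these cannot be told apart.

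Immediate early genes, which growth factors and stress switch on within minutes through SRF and the MAP kinases, rose with TNF present. Of 25 tested 20 rose (80%) and 4 fell, with a median of 0.72, against 10 and 4 without TNF, where the median was 0.04. The difference between both settings passed as positive in 16 members and as negative in 0. Fosb, an AP-1 subunit, was at 40.37, 52.80 and 39.54 CPM with TNF and at 272.2, 245.6 and 264.3 CPM with both (2.56 ± 0.09, adjusted p = 1.56e-11). In the libraries without TNF it was at a mean of 210.8 CPM in the controls and 305.9 CPM with the knockdown, so its level with both treatments lay among these. Fos followed the same course, with 190.6, 237.5 and 208.7 CPM with TNF, 590.9, 590.9 and 584.4 CPM with both, and means of 529.3 and 640.1 CPM without TNF (1.47 ± 0.07). Klf4 rose by 2.36 ± 0.14 and Btg2, an antiproliferative gene that p53 also induces, by 1.40 ± 0.05. Egr1, Nr4a1 and Zfp36, named after their values were seen, rose by 0.70, 0.98 and 1.03 and were not called without TNF (-0.05, 0.04 and -0.04). The difference between both effects was 2.02 for Fosb, 1.20 for Fos, 1.31 for Klf4, 0.77 for Btg2, 0.74 for Egr1, 0.94 for Nr4a1 and 1.07 for Zfp36.

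**Figure D4:**
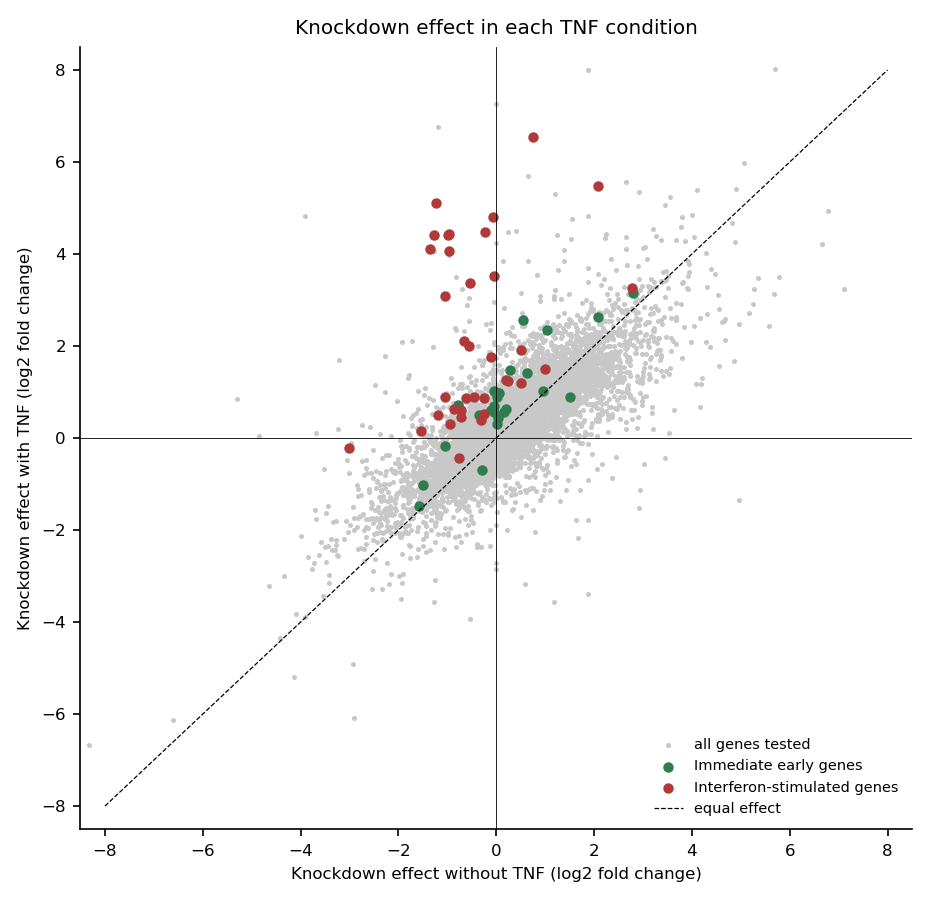
Knockdown effect without TNF (x axis) and with TNF (y axis), both log2 fold changes, for the 15888 genes tested (grey), of which 1 lies outside the axes, with interferon-stimulated genes in red, immediate early genes in green and equal effects on the dashed line. Most red and green points lie above the dashed line, and the correlation over all genes is 0.759.

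Across all genes both knockdown effects went together, which is a description over genes that share libraries and depth: Pearson's r was 0.759 over 15888 genes. Of the 4035 genes higher with TNF 68.9% were also called higher without it, which is 71.9% of the 3870 higher there, and of the 4279 lower genes 71.2% were also called lower, which is 67.9% of the 4488 lower there. Genes called in opposite directions were few, 103 that rose and 69 that fell with TNF. The difference itself passed the test in 1962 genes (12.3%), 1198 as positive and 764 as negative. The most positive named genes were Cyp1a1 (8.75), Oas1g (7.95), Usp18 (6.34) and Gpnmb (6.14). Gpnmb, a glycoprotein of melanocytes and phagocytes, was at a mean of 0.8601 CPM in the controls and 0.01796 CPM with the knockdown alone, and was not called with TNF (0.84, adjusted p = 0.178), though without TNF replicate 1 it was higher there (1.99, adjusted p = 0.00253). Cyp1a1 was at 1.792, 0 and 3.233 CPM with both treatments, and its difference was lost in 11 of the 12 fits that each left out 1 library. The most negative were Cilp (-4.06), Camkv (-3.59), Car10 (-3.40) and Lcp1 (-3.24). Camkv, a pseudokinase of neurons, rose by 3.02 without TNF and was not called with it (-0.57, adjusted p = 0.122, and -0.84 with adjusted p = 0.0473 without knockdown plus TNF replicate 3), and Cilp, a cartilage matrix protein, rose by 2.94 without TNF and was not called with it (-1.12, adjusted p = 0.281). The calls of Car10 and Lcp1 were lost when any of several single libraries was left out, with adjusted p up to 0.365 and 0.134.

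Cell death genes moved in both directions. Of 28 apoptosis genes 13 rose and 8 fell. Apaf1, the scaffold of the apoptosome, went from 21.72, 21.97 and 19.46 to 35.92, 34.37 and 35.38 CPM (0.74 ± 0.06), Bax rose by 0.42, and the survival genes Bcl2l1 and Mcl1 rose by 0.46 and 0.44. Bcl2l1 was at 104.7, 111.4 and 113.2 CPM with TNF and 148.1, 147.1 and 156.4 CPM with both, and it was not called without TNF (0.04). The table counts reads per gene, so its splice forms were not analysed here. Of 11 necroptosis and pyroptosis genes 6 rose and 3 fell, among the former Mlkl, the effector of necroptosis, from 0.5519, 0.3354 and 0.1668 to 2.621, 2.028 and 1.455 CPM (2.52 ± 0.42), Gsdmd (0.95) and Pycard (0.83). Of 26 p53 targets 16 rose (61.5%) and 4 fell. Cdkn1a, which encodes the cell cycle inhibitor p21, went from 90.31, 78.21 and 72.59 to 160.3, 162.4 and 162.6 CPM (1.01 ± 0.06), Phlda3 rose by 1.48 and Sesn2 by 0.81.

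Hair cell genes were mostly higher with the knockdown, with 3 exceptions of sensory function. Of 32 listed 30 were tested, 21 rose (70.0%) and 3 fell, with a median of 1.05, and without TNF 24 rose and 3 fell with a median of 1.20. The calcium-binding proteins Cabp2 and Calb2 went from 2.097, 3.662 and 3.475 to 12.84, 17.06 and 11.45 CPM and from 11.23, 11.04 and 10.45 to 34.72, 40.13 and 31.66 CPM (2.16 ± 0.18 and 1.70 ± 0.13). Otof, needed for release at the ribbon synapse, went from 55.30, 60.41 and 75.04 to 140.4, 145.5 and 115.4 CPM (1.07 ± 0.18). The hair cell transcription factors Pou4f3 and Atoh1 rose by 0.87 and 0.54, and the motor Myo7a by 1.00. The exceptions were Slc26a5, the tip link protein Pcdh15 (65.53, 73.01 and 72.73 against 35.39, 37.56 and 33.73 CPM, -0.99 ± 0.07) and the scaffold Ush1c (-0.51 ± 0.05). Pcdh15 was the only member whose effect differed between both settings (-0.60, adjusted p = 0.000555). The summed level of the list was 959.3 to 1043 CPM with TNF and 1090 to 1263 CPM with both. With knockdown plus TNF replicates 1 and 2 both left out, 14 members were called higher, and Pou4f3 (0.50), Myo7a (0.77) and Atoh1 (0.48) were among those not called. Atoh1 was also lost without any of 5 single libraries (adjusted p 0.0619 to 0.127). Otof, Pou4f3, Atoh1 and Myo7a are named after their values were seen.

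Genes of supporting cells and the otic epithelium fell more often than they rose, 16 of 30 (53.3%) against 4. Otogl, a glycoprotein of the acellular membranes, went from 629.3, 691.2 and 717.7 to 302.6, 342.6 and 307.4 CPM (-1.10 ± 0.06), and Gjb2, the connexin 26 of cochlear gap junctions, from 519.9, 611.8 and 680.2 to 251.4, 239.6 and 266.3 CPM (-1.26 ± 0.09). S100a1 fell by 0.74. The Notch ligand Jag1 went from 44.15, 49.67 and 46.71 to 20.35, 19.12 and 20.80 CPM (-1.22 ± 0.14), and the Notch target Hes1 from 3.256, 2.795 and 2.558 to 1.150, 1.082 and 1.320 CPM (-1.27 ± 0.19). The progenitor marker and Wnt target Lgr5 was at 27.57, 46.68 and 32.56 CPM with TNF and at 11.13, 9.708 and 10.40 CPM with both (-1.77 ± 0.46, adjusted p = 0.0112), a call that did not hold with knockdown plus TNF replicates 1 and 2 left out (adjusted p = 0.147). Against this direction the glutamate transporter Slc1a3, the tectorial membrane gene Tecta and the progenitor factor Sox2 rose by 1.18, 1.02 and 0.60. Summed, the list was at 11860 to 12570 CPM with TNF and at 9758 to 10270 CPM with both. Jag1, Hes1, Lgr5, Tecta and Sox2 are named after their values were seen.

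The pathways that pattern this epithelium had members in both directions. Of 20 Notch genes 8 rose and 3 fell, or 5 fell without TNF replicate 1: the receptor Notch3 went from 4.553, 4.445 and 4.337 to 17.60, 15.90 and 18.78 CPM (1.97 ± 0.09), the ligand Dll1 rose by 1.06 and the glycosyltransferases Lfng and Rfng, which modify Notch, by 1.31 and 0.64. Of 25 Wnt targets and R-spondins 11 rose and 6 fell. Rspo1, an amplifier of Wnt signalling that binds Lgr receptors, was at a mean of 0.03924 CPM in the controls and 0.07532 CPM with the knockdown, at 22.38, 24.77 and 23.05 CPM with TNF and at 67.69, 58.60 and 76.36 CPM with both (1.53 ± 0.12, adjusted p = 7.8e-08). The Wnt receptors Fzd2 and Fzd9 rose by 0.51 and 0.85. With knockdown plus TNF replicates 1 and 2 left out, 6 members of the Wnt list were called higher and 1 lower. Of the spiral ligament genes 7 of 14 were higher (4 without those libraries) and 7 lower: Slc12a2, the cotransporter that carries potassium into cells, fell from 126.0, 126.1 and 114.1 to 66.36, 71.26 and 72.99 CPM (-0.80 ± 0.05) but was not called without TNF (0.07), and this difference of -0.87 passed the test (adjusted p = 7.12e-07).

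Genes of glycolysis and of the response to low oxygen rose together. Of 29 tested 26 rose (89.7%), and only the hexokinases Hk1 and Hk2 fell, with a median of 0.78. Only 1 lower member was left without knockdown plus TNF replicate 3, without TNF replicate 3, with the 6 libraries alone or with limma. Car9, the surface carbonic anhydrase known as a marker of hypoxia, went from 1.932, 0.8666 and 0.1390 to 31.88, 37.24 and 21.74 CPM (4.94 ± 0.44, adjusted p = 1.76e-05, and 5.90 without TNF replicate 1). The vasoactive peptide gene Adm went from 0.3863, 0.4752 and 0.3614 to 4.065, 4.219 and 3.556 CPM (3.26 ± 0.27). The glycolytic enzymes rose less but from high levels: Pkm from 882.8, 796.6 and 794.2 to 1428, 1481 and 1338 CPM (0.78 ± 0.06), Pgam1 by 1.03 and Pfkl by 1.13. Egln3, the oxygen-sensing hydroxylase, and the lactate exporter Slc16a3, both named after their values were seen, rose by 2.39 and 2.52. Slc16a3 was at 8.747, 2.097 and 1.362 CPM with TNF, and without the first of these libraries its difference was 3.75. Its call did not hold without knockdown plus TNF replicates 1 and 2 (2.24, adjusted p = 0.0673). Without TNF 25 members had risen with a median of 1.10, and the difference between both effects passed as negative in 10 members and as positive in 0, so the rise was smaller in the presence of TNF for those 10.

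Nuclear genes of oxidative phosphorylation also rose, 26 of 40 against 1 that fell, but by little (median 0.23). Ndufa1 went from 38.24, 32.79 and 34.11 to 62.91, 62.71 and 63.15 CPM (0.84 ± 0.08), and Atp5b, Cyc1 and Ndufb5 rose by 0.47, 0.45 and 0.40. Of the 13 mitochondrially encoded genes 0 rose and 2 fell. ND5 went from 3530, 3389 and 3150 to 2256, 2244 and 2617 CPM (-0.50 ± 0.07), and CYTB fell by 0.21, a call that was lost without knockdown plus TNF replicate 1 or without TNF replicate 2 (adjusted p 0.0556 and 0.115). Without TNF replicate 3, 5 of these genes were called lower. Ribosomal protein genes were lower in 20 of 58 and higher in 0, with differences of at most 0.40 in size: Rplp0 went from 1333, 1294 and 1230 to 961.0, 1016 and 952.8 CPM, and Rpl4, Rpl22 and Rps23 fell by 0.26, 0.24 and 0.32. Leaving out knockdown plus TNF replicate 1 or 3 left 13 or 12 lower members, and these genes have many pseudogenes that can share their reads. Of 28 genes of cholesterol and fatty acid synthesis 5 rose and 7 fell, with Acly and Lss lower by 0.36 and 0.39.

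Matrix and contractile genes were higher in the knockdown with and without TNF. Of 31 collagen genes 19 rose (61.3%) and 0 fell. Col4a5 of basement membranes went from 122.2, 116.9 and 123.4 to 342.9, 360.7 and 342.5 CPM (1.53 ± 0.05), Col4a6 rose by 2.17 and the fibrillar Col11a1 and the proteoglycan Col18a1 by 1.27 and 0.95. Of 24 contractile and TGF-beta responsive genes 17 rose and 2 fell. Ccn1 and Ccn2, matricellular targets of YAP and SRF, went from 34.33, 24.93 and 26.11 to 180.7, 173.4 and 172.2 CPM and from 17.44, 10.29 and 11.18 to 116.7, 111.3 and 120.2 CPM (2.62 ± 0.12 and 3.16 ± 0.19). Tpm1 (tropomyosin) rose by 1.63 and the receptor Tgfbr2 by 0.72. Of 23 matrix proteases and inhibitors 14 rose and 3 fell, among them the inhibitors Timp2 (215.1, 178.8 and 181.8 against 552.3, 518.9 and 575.2 CPM, 1.52 ± 0.08) and Timp3 (1.02) and the proteases Adamts9 (0.57) and Mmp14 (0.41). Timp3 and Ccn2 overlap genes on the other strand over 21.3% (Syn3) and 23.2% of their exon bases. The same holds for Dll1, Tekt2 and H2ac18, which are named elsewhere, over 20.5%, 20.8% and 100%. In the same libraries the summed endothelial markers, a cell type that makes type IV collagen, went from 17.99 to 24.64 CPM with TNF to 39.58 to 55.41 CPM with both, and their part in these results was not tested.

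Genes of the insulin-like growth factor axis mostly rose. Igfbp2, an IGF-binding protein named after its values were seen, went from 333.9, 156.2 and 158.1 to 2654, 2684 and 2657 CPM (3.62 ± 0.31, adjusted p = 1.56e-05) and was raised as much without TNF (3.46). H19 went from 0.3035, 0.1398 and 0.1112 to 7.676, 7.545 and 7.814 CPM (5.35 ± 0.52), and Igf1 from 7.533, 6.429 and 6.923 to 33.59, 48.97 and 34.30 CPM (2.48 ± 0.17). The receptor substrates Irs1 and Irs2 rose by 0.60 and 0.83, and Irs1 overlaps another annotated gene over 30.9% of its exon bases. Igf2bp2, an mRNA-binding protein, fell from 29.22, 32.48 and 32.39 to 8.398, 10.47 and 8.730 CPM (-1.77 ± 0.10). In all 9 of 17 tested members rose and 4 fell, or 2 fell without knockdown plus TNF replicates 1 and 2.

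More cell cycle genes rose than fell, though their summed level did not rise. Of 38 tested 23 rose (60.5%) and 2 fell, with a median of 0.72. Without TNF 28 rose and 1 fell, with a median of 0.82. Summed, the list was at 300.4 to 355.2 CPM with TNF and at 301.6 to 315.1 CPM with both. Cdk1, the mitotic kinase, went from 0.9382, 0.9225 and 0.8619 to 3.397, 2.731 and 2.694 CPM (1.69 ± 0.22), Ccnb1 from 0.05519, 0.1677 and 0.08341 to 0.6954, 0.8653 and 0.8891 CPM (2.96 ± 0.44), and Cdc20 rose by 0.74. Of the 2 that fell, the G1 cyclin Ccnd2 went from 103.4, 91.21 and 90.75 to 20.27, 23.20 and 20.29 CPM (-2.16 ± 0.08). With knockdown plus TNF replicates 1 and 2 left out 14 members were called higher. Of 27 listed replication-dependent histone genes 4 were tested, and H2bc4 alone fell (-0.48).

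Genes of the splicing machinery, to which RBM25 belongs, had few changes of 2-fold or more. Of 23 genes of the U1 snRNP and of RBM25 partners 7 rose and 7 fell, none by 2-fold and with a median of 0.02. Rbm25 itself, the target of the knockdown, is a member of this list and is among those that fell. Luc7l2, a U1-associated protein, went from 327.6, 320.3 and 336.4 to 235.9, 270.9 and 230.4 CPM (-0.42 ± 0.06), Snrpb rose by 0.33 and the helicase Ddx5 fell by 0.32. Without knockdown plus TNF replicate 2, 3 members rose, and without TNF replicate 1, 4 did. Of 24 hnRNP genes 3 rose and 11 fell (45.8%): Ptbp3, a paralog of the splicing repressor PTB, had the largest difference of the 4 named, from 252.9, 235.6 and 263.3 to 123.4, 152.1 and 136.6 CPM (-0.87 ± 0.07), Hnrnpf and Hnrnpul1 fell by 0.26 each and Hnrnpa0 rose by 0.34. Leaving out knockdown plus TNF replicate 1, or TNF replicate 3, left 6 or 7 lower hnRNP members. Of 27 core spliceosome genes 1 rose and 10 fell (6 without knockdown plus TNF replicates 1 and 2), with Snrnp200 (-0.33), Sf3b1 (-0.26), Prpf31 (-0.24) and Prpf4 (-0.31) among the latter, and without TNF Snrnp200 and Sf3b1 were not called (-0.04 and -0.01). Of 21 SR proteins and their regulators 3 rose and 5 fell, or 10 without knockdown plus TNF replicate 2: the kinases Clk1 and Srpk2 fell by 0.38 and 0.24, the speckle protein Son by 0.33, and Srsf9 rose by 0.34. Of 40 other RBM genes 3 rose and 11 fell, Rbmx, Rbm6 and Rbm28 by 0.46, 0.38 and 0.35, and Rbms3 rose from 103.8, 114.5 and 115.4 to 197.0, 200.9 and 221.0 CPM (0.89 ± 0.06). Rbm24, a splicing regulator of muscle and sensory cells named after its values were seen, had the largest difference of these RBM genes, from 11.59, 11.52 and 17.68 to 36.35, 38.10 and 31.28 CPM (1.37 ± 0.24, adjusted p = 0.000988).

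Stress pathways had no common direction. Of 28 genes of the unfolded protein and amino acid response 9 rose and 13 fell: Herpud1, which serves the degradation of misfolded proteins of the endoplasmic reticulum, went from 82.75, 86.21 and 81.38 to 41.08, 45.38 and 40.20 CPM (-0.98 ± 0.05), and of the disulfide isomerases Pdia4 fell by 0.63 and Pdia6 rose by 0.65. Of 17 heat shock chaperones 5 rose and 4 fell, and 3 rose without knockdown plus TNF replicate 3. Hspb1 went from 20.36, 19.18 and 17.68 to 4.627, 4.922 and 5.820 CPM (-1.90 ± 0.10), while Cryab, Hsph1 and Dnajb1 rose by 0.61, 0.47 and 0.47. Of 25 antioxidant genes 7 rose and 9 fell. Sod3, the extracellular superoxide dismutase, went from 9.133, 6.988 and 7.813 to 145.7, 127.5 and 148.4 CPM (4.14 ± 0.11, adjusted p = 1.71e-12) and also rose without TNF (2.99). Mt2, a metallothionein that TNF raised from a mean of 6.517 CPM, fell from 78.39, 66.19 and 61.64 to 17.81, 16.87 and 16.84 CPM (-2.00 ± 0.12) and was not called without TNF (-0.14), a difference of -1.87 that passed the test (adjusted p = 2.03e-05). Mt2 overlaps an antisense gene over 73.5% of its exon bases. Gstm2 rose by 2.27 and Gpx2 fell by 0.70.

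Markers of other cell types changed in both directions, and the presence of these cells was not tested. Of 18 mesenchymal genes tested 8 rose and 3 fell (13 rose without TNF replicate 1): Vim went from 264.1, 221.6 and 240.6 to 608.3, 583.9 and 674.7 CPM (1.36 ± 0.11), Fbln2 rose by 2.93, and the proteoglycans Lum and Dcn fell by 1.44 and 0.83. Of 16 Schwann and glial genes 6 rose and 2 fell, with Mbp, Prx and Pmp22 higher by 0.88, 1.32 and 1.23 and S100b lower by 1.20. Of 14 neuronal genes 5 rose and 2 fell (3 rose without knockdown plus TNF replicate 2), Stmn3 by 2.21 and Gap43 by 2.32, while Isl1 went from 93.71, 88.98 and 84.91 to 42.93, 40.94 and 42.76 CPM (-1.08 ± 0.05) and Uchl1 fell by 0.87. Of 12 secretory, mucosal and ciliated genes 8 rose and 2 fell: Foxj1, the master factor of motile cilia, went from 5.601, 4.780 and 6.534 to 27.23, 31.34 and 22.66 CPM (2.26 ± 0.12), Tekt2 rose by 1.66 and Wfdc2 by 0.72. Those that fell were Sftpd, a surfactant protein, from 1.049, 0.4193 and 0.5283 to 0.1872, 0.05408 and 0.1347 CPM (-2.38 ± 0.53), and Trp63, a factor of basal epithelial cells named after its values were seen (-1.04, adjusted p = 0.048). Leaving out any 1 of the 6 libraries left 1 lower member. With knockdown plus TNF replicates 1 and 2 left out 3 members of this list were higher. Of 8 endothelial genes 6 rose and 0 fell, and 2 without those libraries, with Eng higher by 1.31 and Cdh5, at 0.1380, 0.1677 and 0.1390 CPM against 0.6687, 1.514 and 0.5927 CPM, by 2.61. Of 4 melanocyte genes tested Kit and Pmel rose (0.76 and 0.82), and of 5 skeletal muscle genes 4 rose from sums of at most 2.318 CPM, or 2 without knockdown plus TNF replicate 1, with the 6 libraries alone or with limma.

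Among the bone genes 4 were far higher in replicates 1 and 2 of the knockdown plus TNF than in replicate 3. Ibsp, bone sialoprotein of mineralizing matrix, had 0 counts in the TNF libraries and was at 52.69, 98 and 0.4580 CPM with the knockdown plus TNF, at least 1810-fold higher against a floor of 3 counts over the group. Its call did not hold when only the 6 libraries compared were fitted (adjusted p = 0.197). Ccn4, Smpd3 and Sp7, named after their values were seen, had the same profile, with 6.446, 12.68 and 0.2155, 8.800, 12.57 and 1.751, and 2.086, 3.002 and 0.2155 CPM. Without replicates 1 and 2 the differences of Ccn4 and Sp7 were 0.83 and 0.22 and neither passed (adjusted p = 0.566 and 0.902), against 5.70 and 3.23 with them, and that of Smpd3 was 2.31 against 4.44. Smpd3 and Ibsp kept their calls in that setting, with replicate 3 alone (adjusted p = 0.00118 and 0.00192). Sp7, the osteoblast factor osterix, also lost its call without either of these libraries alone (adjusted p = 0.0596 and 0.0649) and without TNF replicate 2 or 3 (0.0771 and 0.0966). Cartilage genes did not share this profile: Col2a1 was at 31.12, 38.35 and 25.38 CPM with TNF and 130.6, 105.7 and 150.6 CPM with both (2.03 ± 0.35), Col9a1 rose by 0.99, and the early bone factor Runx2 fell by 0.93, a call lost without replicates 1 and 2 (-0.70, adjusted p = 0.0887). In all, leaving out both replicates left 2816 genes higher and 3089 lower, with the lone library taken to vary like the other groups, and 31 of the interferon-stimulated genes higher.

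**Figure D5:**
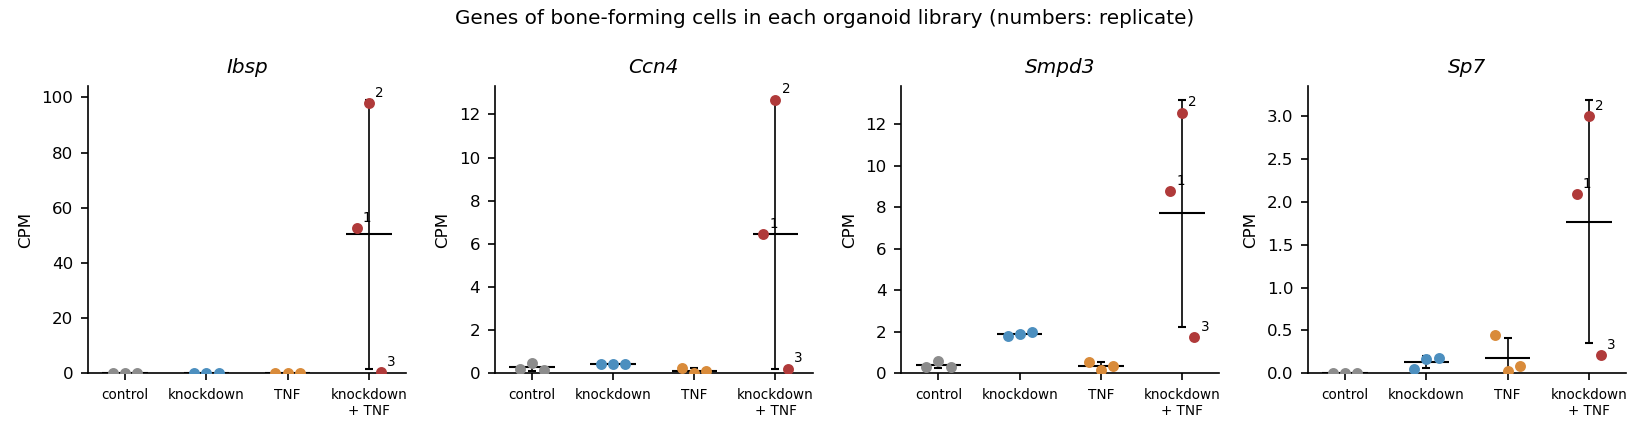
CPM of 4 genes of bone-forming cells in each of the 12 organoid libraries (points), with the group mean (line) and SD (bar), and the replicate number beside each knockdown plus TNF library. All 4 genes are far higher in replicates 1 and 2 of the knockdown plus TNF (Ibsp 52.69 and 98 CPM) than in replicate 3 (0.4580 CPM).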

How the data were processed

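Trimmomatic, HISAT2, HTSeq, DESeq2 and the build mm10 are named, per the submitters' processing notes, without their roles or versions. Total RNA went into a TruSeq kit that keeps no strand and was read on a HiSeq 2500, per the labels' protocols. The authors deposited whole-number counts per gene beside FPKM values. The counts of the 12 organoid libraries were fitted together with edgeR 4.0.16 (R 4.3.3; TMM scaling, filterByExpr, robust quasi-likelihood F-test), with 1 coefficient per group and Benjamini-Hochberg adjustment over the 15888 genes that passed the filter. CPM uses TMM-scaled library sizes. An SE is the size of the log2 fold change divided by the square root of F.

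The effect without TNF and the difference between both knockdown effects come from the same fit. The effect of TNF alone shares the TNF libraries with the main comparison and is given only as levels. Named genes were, per direction, the 12 with the largest change under the rule below and the 5 with the smallest p. To these came 4 per direction for the difference and up to 4 per list by smallest p, with most others marked where they stand. Ifih1, Dhx58, Cx3cl1, Hk1, Hk2, Ptprc, Ifnb1, Oas1a and Ifit3b are named outside these rules and without such a mark. The rule for the 12 was an adjusted p under 0.05, a mean of at least 1 CPM in the higher group and no predicted name. The libraries of both groups also had to lie apart, without overlap. The 4 for the difference met the same rule on their own adjusted p and the highest group mean, with no condition on overlap. The members, the 44 gene lists and the tests were chosen with earlier results of these data known. Of 1075 list entries 34 matched no gene of the table. Alternatives were DESeq2 1.42.0 (its test and its size factors), limma 3.58.1 on log2(FPKM + 1), no filter, a minimum fold of 1.5, the 6 libraries alone, a replicate block and each library left out. The loss of knockdown plus TNF replicates 1 and 2 together was added after seeing the data. On simulated counts for 15631 genes, 65, 67 and 64 genes were changed by 1.5-, 2- and 4-fold. Of these 56.9%, 80.6% and 96.9% were recovered, and 6.13% of the calls were unchanged genes. Far fewer genes changed there than were called in the data, so these shares need not hold here. Promoter sequences are RefSeq's (GRCm38.p6). Some genes are not reported here.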

Additional observations from a re-analysis of the deposited data

Results flagged for a closer look

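The knockdown effect differed between organoids with and without TNF, by the test of the difference itself (edgeR, adjusted p under 0.05), in 1198 genes as positive and in 764 as negative. Values in parentheses are the log2 fold change with TNF minus that without it. Of the genes named above, the positive differences of 1 or more were those of Cyp1a1 (8.75), Oas1g (7.95), Usp18 (6.34), Gpnmb (6.14), Ifit3 (5.69), Irf7 (5.41), Oasl2 (2.81), Fosb (2.02), Runx2 (1.51), Stat2 (1.49), C2 (1.37), Klf4 (1.31), Fos (1.20), Fbln2 (1.19), Sod3 (1.15), Hes1 (1.11), Hspb1 (1.10), Zfp36 (1.07). Smaller positive differences were those of Il33 (0.96), Nr4a1 (0.94), Igf1 (0.87), S100b (0.83), Tap1 (0.81), Adar (0.78), Btg2 (0.77), H2bc4 (0.76), Egr1 (0.74), Nfkbie (0.70), Cdkn1a (0.56), Kank4 (0.54), Rtp4 (0.52), Gjb2 (0.41), Bcl2l1 (0.41), Notch3 (0.40), Agrn (0.38), Cryab (0.37), Col18a1 (0.36), Rfng (0.36), Col11a1 (0.35), Xdh (0.35), Tapbp (0.34), Gpx2 (0.33), Ddx58 (0.31), Col4a5 (0.29), Sms (0.29), Nfkb2 (0.29), Nfkbia (0.21). Negative differences were those of Sf3b1 (-0.25), Ikbkg (-0.26), Il6st (-0.27), Fzd2 (-0.28), Snrnp200 (-0.29), Slc1a3 (-0.30), Adamts9 (-0.34), Pgam1 (-0.36), Smoc2 (-0.37), Pfkl (-0.45), Gask1a (-0.45), ND5 (-0.47), Nes (-0.53), Pcdh15 (-0.60), Tecta (-0.60), Kit (-0.68), Cxcl14 (-0.79), Slc12a2 (-0.87), Hsd17b6 (-1.01), Mt2 (-1.87), Lcp1 (-3.24), Car10 (-3.40), Camkv (-3.59), Cilp (-4.06). Interferon-stimulated and immediate early genes stand among the positive ones, and Mt2, Slc12a2 and the neuronal gene Camkv among the negative ones. Of these 71 genes 29 lost the call in at least 1 of the 12 fits that each left out 1 library, and 14 in at least 5 of them. Nfkbia lost it in all 12 fits and Cyp1a1 in 11. Gjb2, Lcp1, Notch3 and Rfng lost it in 10, Car10, Rtp4 and Sms in 8, Tapbp in 7, Hsd17b6 in 6, and Ddx58, Igf1 and Xdh in 5. With the replicate number as a block the calls of Nfkbia, Gjb2, Notch3, Lcp1 and Car10 were lost (adjusted p 0.0511 to 0.0738). No group had enough libraries for a test of single outlying samples.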

How the results depend on the processing

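Asking for a change of more than 1.5-fold reduced the called genes to 1298 higher and 611 lower, by construction. The other planned settings kept both counts within 1.5 times, and leaving out 1 library gave 3552 to 3814 higher and 3887 to 4121 lower. The difference between both knockdown effects was less stable: leaving out 1 library gave 637 to 1179 positive and 432 to 1158 negative genes. The positive count was 789 without control replicate 1, 637 without knockdown plus TNF replicate 1 and 677 without its replicate 3. The negative count was 432 and 477 without control replicates 1 and 2, 486 without knockdown replicate 2 and 1158 without knockdown plus TNF replicate 2, and the cause was not tested. With no filter on low counts the split was 938 positive and 1026 negative. Replicate numbers did not pair the samples (r between same-numbered libraries -0.004, -0.054 and -0.00822), and the replicate block gave 3954 higher and 4184 lower genes and 1086 positive and 655 negative differences. Of the values for single genes 3146 kept direction and side of the threshold, 139 lost their call, 7 gained one and 7 reversed. The reversed values themselves lay near 0, but that of Cilp came from a large shift. Cilp ranged down to -2.644 over all settings and was at 0.0779 without knockdown plus TNF replicates 1 and 2. Mitf was at -0.0447 in that same setting. With 1 library left out, H1f2 ranged from -0.0860 (TNF replicate 1) to 0.1422 and was at -0.0143 without knockdown plus TNF replicate 3, H2ac18 ranged from -0.0886 (TNF replicate 2) to 0.1947 and was at -0.0530 without that same library, and Mitf ranged from -0.0225 (TNF replicate 1) to 0.2302. No scaling moved the median of all genes by over 0.1. Genes under 1 CPM rest on few reads, and their folds carry the widest errors.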
